A study of Mus musculus with 24 samples.

Results

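The clustered protocadherins are adhesion proteins of the cell surface whose genes lie in 3 neighbouring clusters, called alpha, beta and gamma. The members described here are the 51 gene symbols of the single-nucleus RNA (snRNA) table that begin with Pcdha, Pcdhb or Pcdhg followed by a digit, a or c, out of 33902 symbols in all. They comprised 14 alpha, 22 beta and 15 gamma members. The 7 Pcdhgb genes of the gamma cluster lie outside that rule and are given only for comparison. Members were chosen by symbol and not by a measured value, though with earlier results of these data known.

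Every alpha and gamma gene has a promoter and a large variable exon of its own, which encodes the extracellular and transmembrane parts, and is spliced to short constant exons at the end of its cluster. Beta genes have a single coding exon and no constant exon. A single neuron is known to switch on a small and largely random selection of the alternate members, whereas the C-type members (Pcdhac1, Pcdhac2, Pcdhgc3, Pcdhgc4 and Pcdhgc5) are controlled apart from the others. The proteins bind their own kind on neighbouring membranes, and the mixture on a neuron's surface lets its branches recognise and avoid one another. The level of a member in a cell type, as used below, is a sum over many nuclei and does not show how many members were active in a single nucleus.

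Nuclei came from the ventral hippocampus of untreated adult male mice of 2 inbred strains, C57BL/6J (B6) and DBA/2J (D2, labelled DBA). Each strain had 2 snRNA libraries and 2 snATAC libraries, and a library pooled about 2 animals of 10 to 16 weeks. For snRNA the study mixed nuclei sorted for and against NeuN, which marks neurons, so the share of neurons was set by the sort, and for snATAC, which maps open chromatin, no such enrichment was made. The authors clustered the nuclei into 17 snRNA cell types (8 excitatory, 3 inhibitory, 5 non-neuronal and the Cajal-Retzius type CR-CR) and summed counts per type and library. D2 reads were mapped to a copy of the B6 reference that carried D2 variants, so strain and reference cannot be told apart in any comparison of D2 with B6. Library labels do not say whether the libraries were made in separate batches. The paper describes capture of the snRNA nuclei on a single chip, and whether other steps were shared is not stated. The p-values measure only the spread between these libraries.

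All 49 members with a single entry in the GENCODE vM21 annotation of mm10 were on the plus strand of chromosome 18, between chr18:36930184-37841873, a stretch of 911.7 kb. Pcdha11 and a second symbol, Pcdha11.1, could not be placed. The 22 beta members were separate single-exon genes, of which Pcdhb21 and Pcdhb22 overlapped each other. The 12 placed alpha and the 15 gamma members all overlapped other members on their strand and shared 2 annotated ends per cluster. The libraries were made from the RNA's 3′ end, and reads from the constant exons or from shared introns of these genes cannot be assigned to 1 member. Among placed members, Pcdha1 alone had a stretch, of 9021 bp, that no other gene on its strand spans. Alpha and gamma values are therefore uncertain through shared exons, which beta members other than Pcdhb21 and Pcdhb22 lack. All 22 beta members still lay wholly within the spans of other genes on their strand, at least 3 for each. How reads there were assigned was not tested. Of 17 further symbols in the table that overlap members, several lie on the opposite strand, and Gm26672 was the most abundant of them (15871 B6 and 11302 D2 counts). Whether the counting used strand is not given in the sources used here.

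Members were measured at low depth. The 4 snRNA libraries held 43048686 to 56452272 counts, and the 68 columns of types by library held 139713 (CR-CR) to 11352265 (Exc-DG). Over all columns an alpha member had 76 to 1151 counts, a beta member 3 to 1379 and a gamma member 108 to 1626. Pcdhb1 had the 3 counts, all of them in D2, and is given no fold. Levels are CPM, a member's share of its column's counts on a fixed common scale after TMM scaling (trimmed mean of M-values), a correction for RNA composition. Libraries are numbered 2 and 3 in each strain, as the columns number them.

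The type labels were checked against defining markers. Slc17a7, the vesicular glutamate transporter of excitatory neurons, had a mean of 203 to 387 CPM in excitatory types and 16.2 to 17.0 CPM in inhibitory types. Gad2, an enzyme of GABA synthesis, had 236 to 606 CPM in inhibitory types and 1.55 to 4.37 CPM in excitatory types. In oligodendrocyte precursors (NN-OPC) Pdgfra, their defining receptor, had 1086 CPM. CR-CR libraries differed most, since Reln, the marker of Cajal-Retzius cells, read 4478 and 5091 CPM in B6 and 2668 and 1159 CPM in D2.

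The 3 families were distributed differently over the cell types. Summed over the 14 alpha members, the mean level was 30.2 to 52.3 CPM in excitatory types, 43.1 to 62.0 CPM in inhibitory types and 54.0 CPM in CR-CR. Among non-neuronal types the alpha sum was 2.72 CPM in astrocytes (NN-Astro), 3.43 CPM in microglia (NN-MGC), 7.56 CPM in oligodendrocytes (NN-ODC) and 8.37 CPM in vascular cells (NN-VLMC). Oligodendrocyte precursors stood with the neurons, with alpha sums of 49.7 and 36.8 CPM in B6 and 61.9 and 73.4 CPM in D2.

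Free RNA gives non-neuronal nuclei counts of neuronal genes, and Slc17a7 serves as a measure of it. Relative to the mean of the excitatory types, Slc17a7 stood at 16.5% in astrocytes and the alpha sum at 7.16%. In microglia these shares were 25.8% and 9.05%, and in oligodendrocytes 19.6% and 19.9%. In vascular cells they were 19.0% and 22.1%, on 13 alpha counts in all. The alpha share of these 4 types was below or close to that of Slc17a7. Their alpha counts are not read as expression, and the part of free RNA in them was not tested. In the precursors Slc17a7 stood at 14% and the alpha sum at 146%, and the part of free RNA in that level was not tested. Genes of the interneuron lists were present in the precursors as well, with Nxph1 at 2277 CPM, Adarb2 at 1712 CPM, Gad1 at 50.2 CPM and Gad2 at 3.35 CPM, and the part of other cells in the precursors' alpha level was not tested.

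The beta sum was highest in oligodendrocyte precursors, at 103.5 CPM, and in the 3 inhibitory types, at 84.5 to 91.1 CPM. It was 34.2 to 67.2 CPM in excitatory types, 76.2 CPM in astrocytes and 18.4 CPM in microglia. The order of the inhibitory types and the precursors lay within their spread, as inhibitory columns reached from 68.3 to 110.1 CPM and those of the precursors from 79.9 to 144.7 CPM.

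The gamma sum was highest in 3 of the 5 non-neuronal types. It was 117.8 CPM in vascular cells, on 183 counts, 92.7 CPM in oligodendrocyte precursors and 91.5 CPM in astrocytes. Excitatory types had 29.6 to 61.4 CPM and inhibitory types 33.8 to 52.0 CPM. In vascular cells 5 astrocyte markers summed to 1364 CPM and 5 vascular markers to 1490 CPM. The part of astrocyte RNA in the vascular gamma level was not tested. Microglia, at 39.8 CPM, and oligodendrocytes, at 44.8 CPM, lay within the range of the neurons. No column of a neuronal type other than CR-CR went above 80.6 CPM, and the astrocyte columns lay between 71.3 and 115.8 CPM. Counted per nucleus, the contrast between families in astrocytes was 0.846 alpha, 23.9 beta and 28.2 gamma counts per 100 nuclei. An Exc-DG nucleus, with more RNA, gave 23.1 alpha, 27.0 beta and 30.7 gamma counts per 100 nuclei.

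**Figure D1:**
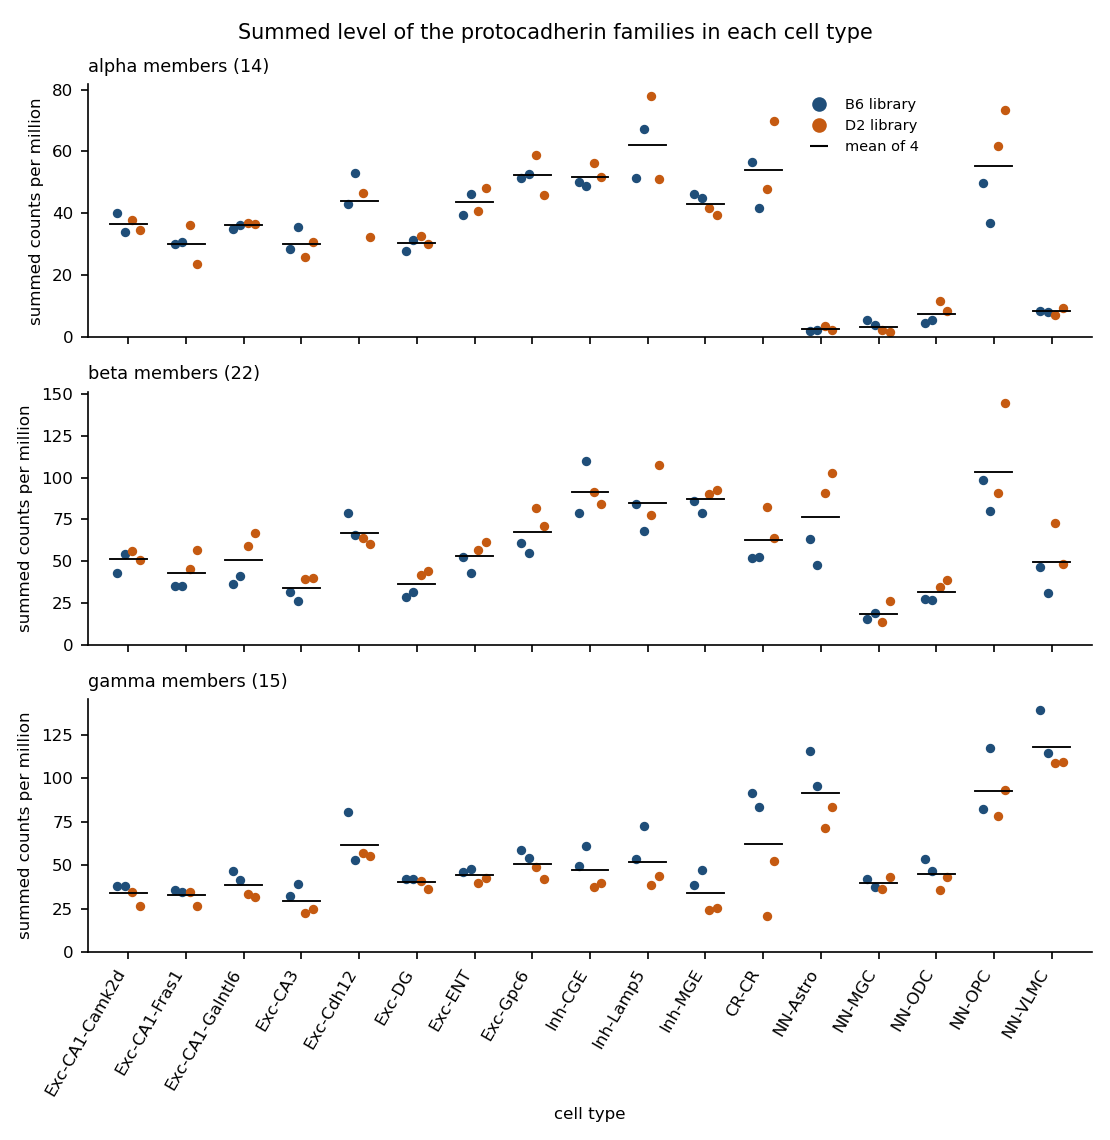
Summed level of the alpha, beta and gamma members (CPM, vertical axes starting at 0) in each of the 17 snRNA cell types (horizontal axis), with 1 point per library coloured by strain and a bar at the mean of 4. The alpha sum falls to 2.72 CPM in astrocytes but is 55.5 CPM in oligodendrocyte precursors. The gamma sum is highest in vascular cells, at 117.8 CPM on 183 counts.

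Levels of single members are given here per kb of exon that no other gene on the strand shares. Counts of libraries made from the RNA's 3′ end need not grow with exon length, and whether they did was not tested. The order of members therefore depends on this scaling. Over all columns Pcdhb17 had 1379 counts and Pcdhb14 1338, more than Pcdhb9 with 853. Of the alpha members 11 of 14 are included, since Pcdha4 has little exon of its own and Pcdha11 and Pcdha11.1 could not be placed, and Pcdha11.1 had the most counts of the family (1151). In excitatory neurons the alpha members ranged from 0.147 CPM per kb (Pcdhac1) to 2.05 CPM per kb (Pcdha5), and the gamma members from 0.216 (Pcdhgc3) to 1.55 (Pcdhga12). Beta members reached 1.32 CPM per kb with Pcdhb9. In inhibitory neurons the leading members among those included were Pcdha1 at 2.80, Pcdhb17 at 2.64 and Pcdhgc4 at 2.13 CPM per kb. In the precursors they were Pcdha1 at 2.95, Pcdhb9 at 4.74 and Pcdhgc3 at 3.84 CPM per kb. Pcdha1 alone also has unshared intron, whose reads would raise its level per kb of exon, and their part was not tested. The leading gamma member per kb thus differed between these 3 groups of cells, and no test was made of that order.

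The C-type members each had their own distribution. Pcdhac1 was near the limit of detection, with no library above 3.08 CPM in any type. Pcdhac2, which serotonergic axons need in order to spread evenly, had means of 2.50 to 3.38 CPM in excitatory types and 5.67 to 7.47 CPM in inhibitory types. It was at most 2.54 CPM in non-neuronal types. In Inh-MGE, the interneurons of the medial ganglionic eminence, its 4 libraries read 6.81 and 7.44 CPM in B6 and 5.38 and 6.14 CPM in D2. All of these lay above the 4 libraries of Exc-DG, which read 2.61 and 2.78 CPM in B6 and 2.77 and 1.85 CPM in D2.

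Pcdhgc3, a member known to promote dendrite branching, was mostly a non-neuronal transcript here. Its mean was 13.0 CPM in oligodendrocyte precursors, 9.75 CPM in astrocytes and 8.28 CPM in vascular cells. Neuronal types other than Exc-Cdh12 (2.27 CPM) and CR-CR (3.81 CPM) were below 1.1 CPM, and oligodendrocytes were at 1.5 CPM. The astrocyte libraries read 13.2 and 7.30 CPM in B6 and 7.24 and 11.3 CPM in D2, so strains overlapped, and every one of them was above all Exc-DG libraries (0.359 to 1.16 CPM).

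Pcdhgc4, which is required for the survival of many neurons and interneurons in particular, was shared between inhibitory types, astrocytes and oligodendrocyte precursors. Microglia had the lowest mean of all types, at 1.87 CPM. The mean of Pcdhgc4 was 10.2 CPM in Inh-CGE, 8.15 CPM in Inh-Lamp5 and 5.72 CPM in Inh-MGE, and 10.5 and 10.9 CPM in astrocytes and precursors. Excitatory types lay between 1.97 and 4.36 CPM. Pcdhgc5, reported to bind GABA-A receptors, ran the other way among neurons. It had 3.59 to 6.47 CPM in excitatory types and 2.02 to 2.16 CPM in inhibitory types, and 5.77 CPM in astrocytes.

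**Figure D2:**
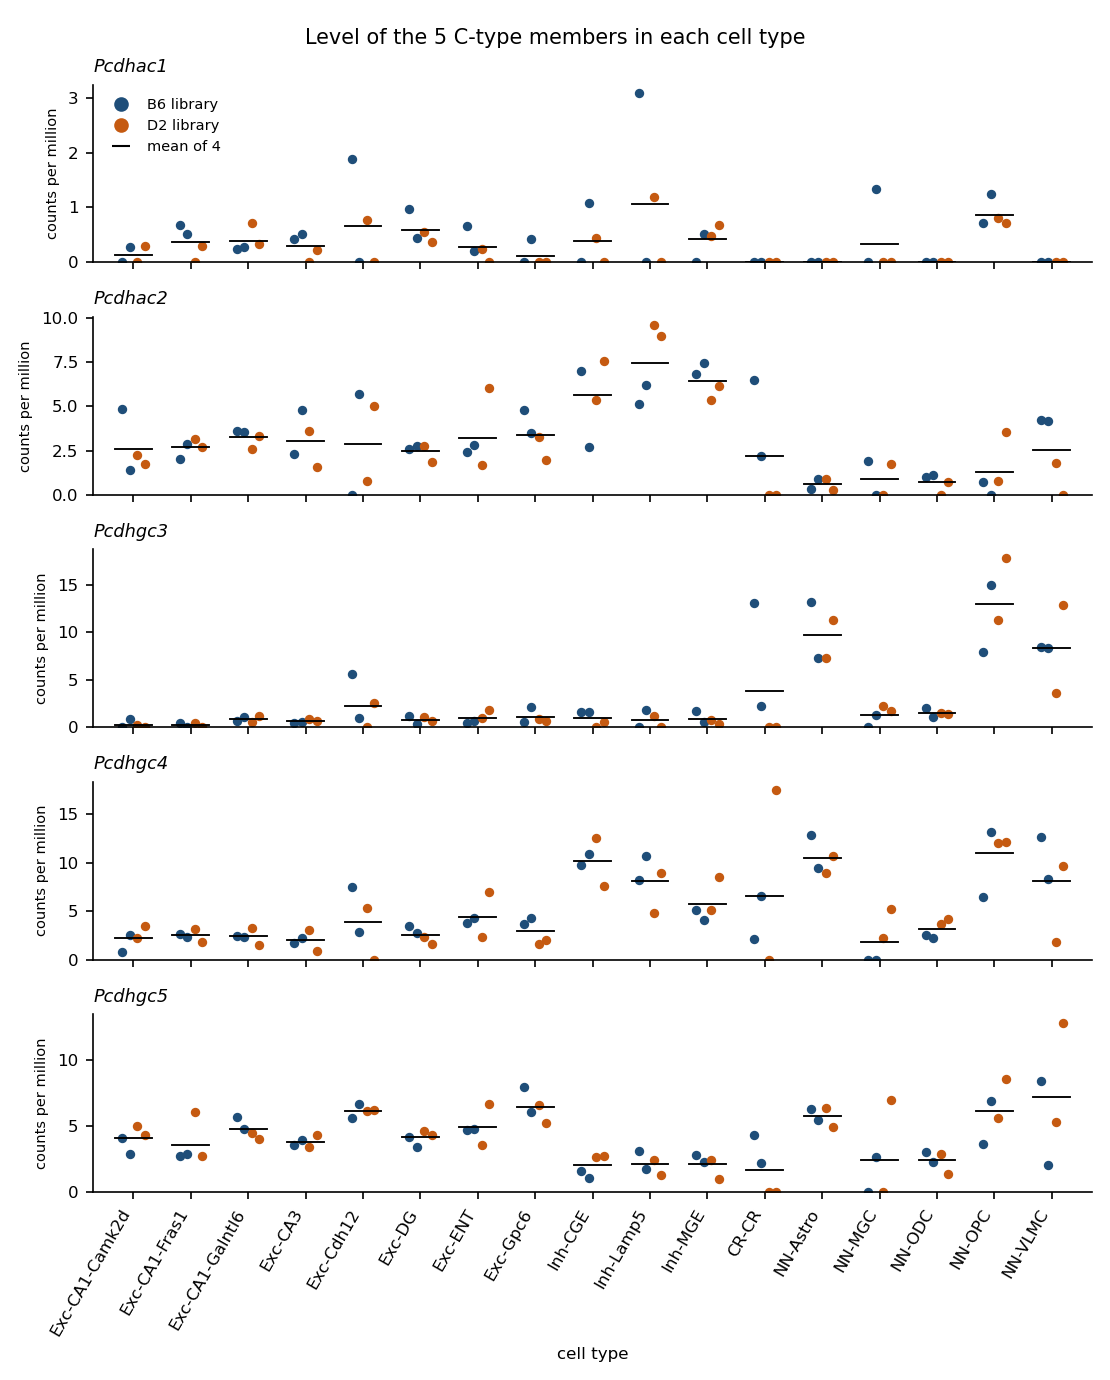
Level (CPM, vertical axes starting at 0) of the 5 C-type members in the 17 snRNA cell types, with 1 point per library coloured by strain and a bar at the mean of 4. Pcdhgc3 stands out in astrocytes, precursors and vascular cells, Pcdhac2 and Pcdhgc4 are higher in inhibitory than in excitatory types, and Pcdhgc5 is lower there, at 2.02 to 2.16 CPM.

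Neurons were compared with non-neuronal cells after summing the types of each class within a library, with the library as a block. As shares of all counts, alpha members were higher in neurons and gamma members lower. Per 100 nuclei, gamma counts were 30.1 (Inh-MGE) to 44.3 (Exc-Cdh12) in excitatory and inhibitory types. They were 8.33 in microglia, 11.9 in oligodendrocytes, 28.2 in astrocytes, 35.1 in precursors and 35.5 in vascular cells. The lower gamma share in neurons therefore does not mean fewer gamma counts per nucleus. Of 49 members tested, 12 were higher in neurons and 15 lower at an adjusted p under 0.05 (edgeR quasi-likelihood F test, Benjamini-Hochberg over all transcripts), where 35.0% of all transcripts were higher and 35.8% lower. All 12 that were higher were alpha members, of 13 tested, and the remaining tested one, Pcdha2, had a log2 fold change of 0.71 ± 0.29 (SE). Alpha members near 0 in non-neuronal cells, such as Pcdha7 at 0.058 CPM per kb, could pass the filter on low counts mainly through the neurons. The number and direction of the alpha calls are therefore set in part by the filter. The 15 that were lower were 11 of 15 gamma members and 4 of 21 beta members (Pcdhb2, Pcdhb14, Pcdhb18 and Pcdhb19). DESeq2 called 9 lower, 8 gamma members and 1 beta member, and 12 higher. The median log2 fold change was 1.68 over alpha, -0.02 over beta and -0.72 over gamma members, against -0.01 over all transcripts. In the other direction 0 alpha members were lower and 0 beta or gamma members higher, also at an unadjusted p under 0.05 and by DESeq2. Of the 7 Pcdhgb genes outside the rule, 6 were lower in neurons.

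Pcdhac2 read 3.69 and 3.92 CPM (B6) and 3.41 and 3.64 CPM (D2) in neurons, and 0.772, 0.851, 0.654 and 0.987 CPM in non-neuronal cells. The classes did not overlap, and the log2 fold change was 2.11 ± 0.20 (edgeR, adjusted p = 3.02e-05). Pcdha5 read 4.83, 6.73, 5.13 and 4.79 CPM in neurons against 1.03, 1.28, 1.18 and 1.60 CPM, a log2 fold change of 2.03 ± 0.19. The other alternate members named by the rule, Pcdha12, Pcdha4 and Pcdha1, had log2 fold changes of 1.68 ± 0.20, 1.58 ± 0.39 and 1.54 ± 0.33. Pcdha4 and Pcdha1 were no longer called without the library block. Strain moved with the non-neuronal values of Pcdha1, which were 0.644 and 0.425 CPM in B6 and 3.66 and 2.47 CPM in D2, against 3.43 and 3.99 CPM and 6.44 and 5.94 CPM in neurons, so its classes overlapped.

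Oligodendrocyte precursors supplied most of the alpha signal of the non-neuronal class. With that type left out, an alternative added after the levels were seen, 13 members were higher and 13 lower in neurons. Pcdha5 then stood at a log2 fold change of 3.24, Pcdha12 at 3.98, Pcdha4 at 3.02 and Pcdha1 at 2.85, each over 1.5 times its fold with the precursors.

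Among gamma members Pcdhgc3 differed most, at 0.876 and 0.789 CPM (B6) and 0.764 and 0.769 CPM (D2) in neurons and 7.6, 5.96, 5.76 and 9.01 CPM in non-neuronal cells. The ranges were far apart, and the log2 fold change was -3.17 ± 0.18 (edgeR, adjusted p = 1.47e-06). Pcdhgc4 read 3.43 to 3.75 CPM in neurons and 6.59 to 8.39 CPM in non-neuronal cells, a log2 fold change of -1.06 ± 0.14. With every type given equal weight it was -0.36 (edgeR, adjusted p = 0.20) and was not called. Pcdhga11, Pcdhga7 and Pcdhga6, alternate members of the gamma cluster, had log2 fold changes of -1.10 ± 0.20, -1.10 ± 0.21 and -1.04 ± 0.17, and the first was not called without the library block. Pcdhgc5 read 4.01 to 4.63 CPM in neurons and 4.04 to 4.94 CPM in the other class, so the classes overlapped, and its log2 fold change was -0.08 ± 0.13 (edgeR, adjusted p = 0.59). Pcdhac1 did not pass the filter on low counts in this or any later comparison of classes.

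Excitatory and inhibitory neurons were compared in the same way. Nearly all members that differed were higher in inhibitory neurons, and most of these were beta members. Of 49 members tested, 1 was higher and 19 were lower in excitatory neurons (edgeR), where 27.8% of all transcripts were higher and 28.1% lower. The 19 were 14 of 21 beta members, 3 of 13 alpha members (Pcdha1, Pcdha2 and Pcdhac2) and 2 of 15 gamma members (Pcdhga2 and Pcdhgc4). The median log2 fold change was -0.99 over beta, -0.37 over alpha and 0.17 over gamma members, and 0.00 over all transcripts. Of the 5 Pcdhgb genes tested 0 were called by edgeR or DESeq2, and 0 had an unadjusted p under 0.05.

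Pcdhb14 read 5.25 and 4.45 CPM (B6) and 5.43 and 5.56 CPM (D2) in excitatory neurons and 11.7, 10.1, 11.6 and 9.10 CPM in inhibitory neurons. Every inhibitory library was above every excitatory one, and the log2 fold change was -1.09 ± 0.12 (edgeR, adjusted p = 7.4e-06). The other beta members named by the rule were Pcdhb5 (-1.48 ± 0.23), Pcdhb19 (-1.21 ± 0.17) and Pcdhb16 (-1.08 ± 0.14), all as log2 fold changes. The beta members named here were chosen as the largest called changes, so the separation of their libraries is only a description. Beta genes have no constant exons, so counts of these members do not depend on how reads of constant exons were divided.

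Pcdhgc4 and Pcdhgc5, which are neighbours at the end of the gamma cluster and share its constant exons, went in opposite directions. Pcdhgc4 read 2.90, 2.93, 2.85 and 2.36 CPM in excitatory and 6.70, 6.84, 7.05 and 7.90 CPM in inhibitory neurons, a log2 fold change of -1.40 ± 0.15 (edgeR, adjusted p = 6.25e-06). Pcdhgc5 read 4.65, 4.19, 4.83 and 4.62 CPM in excitatory and 2.44, 1.85, 2.39 and 1.55 CPM in inhibitory neurons, a log2 fold change of 1.09 ± 0.18 (edgeR, adjusted p = 0.000261). Neither pair of ranges overlapped. Pcdhac2 was 1 of the 3 alpha members that were lower, with a log2 fold change of -1.08 ± 0.15. Pcdhgc3 was low in both classes, at 0.707 to 0.809 and 0.344 to 1.37 CPM, and its log2 fold change was -0.16 ± 0.37 (edgeR, adjusted p = 0.74).

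**Figure D3:**
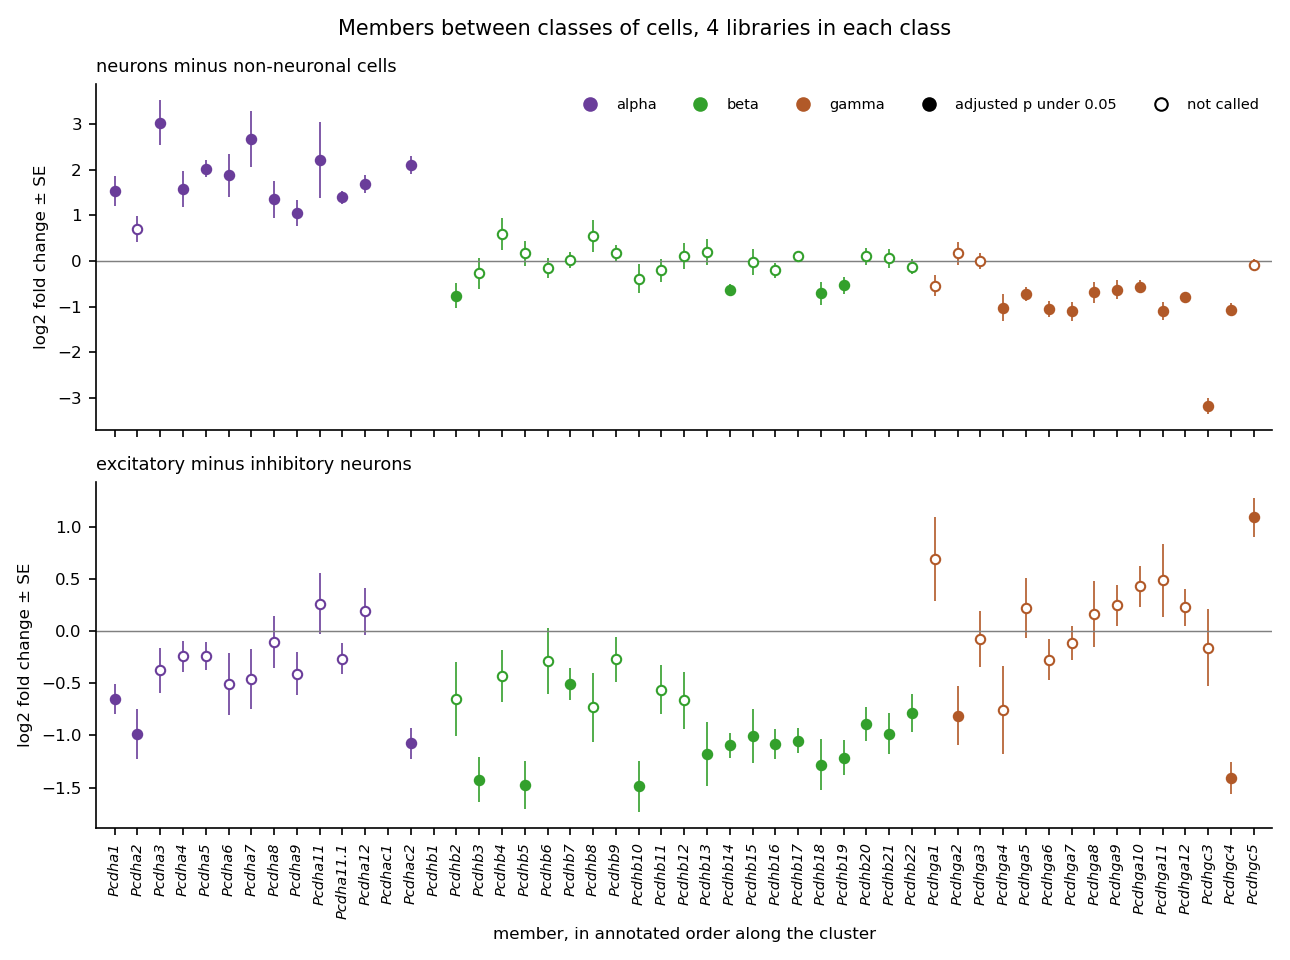
Log2 fold change ± SE (vertical axes) of each tested member, in annotated order along the cluster and with Pcdha11 and Pcdha11.1 placed by number, between neurons and non-neuronal cells (top) and between excitatory and inhibitory neurons (bottom), each from 4 libraries per class. Filled points passed an adjusted p of 0.05. Alpha members lie above 0 and most gamma members below it in the top panel, and the 21 beta members tested lie below 0 in the lower panel, where Pcdhgc5 alone is filled above it.

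Dentate granule neurons (Exc-DG) differed from the CA1 and CA3 neurons in few members. Of 44 tested, 2 were higher in Exc-DG, Pcdhga6 and Pcdhb9, and 6 were lower (edgeR), where 26.0% of all transcripts were higher and 27.1% lower. Pcdhb9 read 3.38 and 4.13 CPM (B6) and 5.99 and 6.43 CPM (D2) in Exc-DG and 2.93, 3.25, 3.41 and 3.38 CPM in CA neurons. The classes overlapped slightly, with the excess mainly in D2, and the log2 fold change was 0.60 ± 0.16. Pcdhga6 had 0.79 ± 0.22 and Pcdhb17 -0.42 ± 0.14 on the same scale. The remaining 5 that were lower, Pcdha3, Pcdhb13, Pcdhb4, Pcdhb3 and Pcdhb19, were named for being few, after their values were seen. No member was called without the library block, 2 were called by DESeq2 and 4 without D2 library 2. Pcdhac2, Pcdhgc4 and Pcdhgc5 had log2 fold changes of -0.23, 0.17 and 0.00, and none was called, while Pcdhgc3 was too low to test.

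Cajal-Retzius cells, early-born neurons that secrete reelin, were compared with all other neurons. Of 47 members tested, 1 was higher and 0 were lower (edgeR), where 10.9% of all transcripts were higher and 17.4% lower. That member was Pcdhgc3, on 7 counts, with 10.9 and 1.85 CPM in the B6 libraries and 0 CPM in both D2 libraries. Only the B6 libraries exceeded the other neurons (0.841 to 0.966 CPM), and the call, at a log2 fold change of 2.35 ± 0.77, was lost with DESeq2, with B6 library 2 left out (0.37) or B6 library 3 left out, and within either strain. At an unadjusted p under 0.05, 1 member was higher and 2 were lower, and DESeq2 called 0, while leaving out D2 library 2 gave 2 calls. Reln and Trp73, another Cajal-Retzius marker, were lower in the D2 libraries too, which held 139713 and 162378 counts against 479789 and 482936 in B6, and the part of this in the values was not tested. Pcdhac2, Pcdhgc4 and Pcdhgc5 rested on 4, 7 and 3 counts in CR-CR and were not called.

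Oligodendrocyte precursors were compared with the oligodendrocytes they give rise to. Only 5 members passed the filter on low counts, and 3 of these were called, all higher in the precursors (edgeR), where 27.8% of all transcripts were higher and 27.1% lower. Pcdhgc3 read 7.31 and 14.2 CPM (B6) and 10.4 and 16.1 CPM (D2) in precursors and 1.22 to 2.17 CPM in oligodendrocytes, a log2 fold change of 2.89 ± 0.37 (edgeR, adjusted p = 2.6e-05). Pcdhb9 read 8.30 to 20.0 CPM against 0.757 to 3.81 CPM, a log2 fold change of 2.87 ± 0.40. Pcdha11.1 read 10.3 to 13.0 CPM against 0 to 1.63 CPM, a log2 fold change of 3.91 ± 0.47. None of the 3 overlapped between the types, which is only a description, since they were named as called changes. Members so low in oligodendrocytes could pass the filter only through the precursors, so the number and direction of these calls are set in part by the filter and are given as a description. Pcdhac1, Pcdhac2, Pcdhgc4 and Pcdhgc5 were too low to test. With every member of at least 1 count tested, 22 of 50 were called, all higher in the precursors, and leaving out B6 library 2, B6 library 3 or D2 library 2 gave 5 calls each. The study set the precursors aside in its own later steps, together with microglia and vascular cells, and the counts behind each value are few.

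D2 was compared with B6 within each cell type, 2 libraries against 2. Beta members called in a type were higher in D2 and gamma members called were lower, though neither family was called more often than transcripts at large. The split of all transcripts by direction is not given here. In all 249 pairs of a member and a type could be tested, over 41 members, and 42 were called (edgeR), which is 16.9% of the pairs, against 22.1% of the pairs of all transcripts and types. Of the 102 beta pairs, 14 were higher in D2 and 0 lower, with 1 lower at an unadjusted p under 0.05. Of the 87 gamma pairs, 0 were higher and 16 lower, with 1 higher at an unadjusted p under 0.05, and of the 60 alpha pairs, 7 were higher and 5 lower. The median log2 fold change was 0.36 over the beta, -0.17 over the gamma and -0.12 over the alpha pairs. Pairs of the same member share a genome and a reference and are not independent. A low member could also enter a type through the strain in which it was high, so the number of types tested and the shared direction over them are descriptions and not support.

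The calls lay in 11 types. There were 12 among 35 members tested in Exc-CA1-Galntl6 (35.0% of all transcripts), 6 of 34 in Exc-DG (36.0%), 4 of 25 in Exc-ENT (28.0%) and 3 of 24 in Exc-CA3 (32.1%). Inh-MGE had 4 of 23 (21.0%), astrocytes 4 of 19 (26.2%) and oligodendrocyte precursors 4 of 17 (16.2%). Inh-CGE had 2 of 14 (15.1%), Exc-CA1-Fras1 1 of 21 (28.5%), Exc-Gpc6 1 of 14 (19.7%) and oligodendrocytes 1 of 2 (19.0%). In Exc-CA1-Camk2d 0 of 19 were called (19.4%), and 0 at an unadjusted p under 0.05 or by DESeq2. In Inh-Lamp5 0 of 2 were called (12.1%), with 1 at an unadjusted p under 0.05 and 0 by DESeq2, and no member could be tested in Exc-Cdh12 (8.44% of all transcripts called), CR-CR (4.26%), microglia (10.4%) or vascular cells (7.87%). The share of members called was thus close to or below that of all transcripts in most types, and above it in the precursors and in the 2 members tested in oligodendrocytes. Over all types, 59 pairs had an unadjusted p under 0.05 and DESeq2 called 5. Without D2 library 2 there were 21 calls and without D2 library 3 there were 27.

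Pcdhga11, an alternate gamma member, was called lower in D2 in the 6 types in which it passed the filter, in several of them through its B6 libraries (10 and 11 counts against 0 and 3 in Inh-MGE). In Exc-DG it read 4.05 and 3.05 CPM in B6 and 0.887 and 0.741 CPM in D2. The strains were well apart, and the log2 fold change was -2.08 ± 0.37. In Exc-CA1-Galntl6 the values were 3.36 and 3.16 CPM against 0.719 and 0.670 CPM, and over the 6 types the log2 fold change ran from -1.69 in astrocytes to -2.62 in Inh-MGE. These 2 excitatory types were also called by DESeq2, while the 4 others were not.

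Pcdha9, an alternate alpha member, was lower in D2 in 4 of 6 types. In Exc-CA1-Galntl6 it read 2.98 and 3.43 CPM in B6 and 1.15 and 0.670 CPM in D2, without overlap, and its log2 fold change was -1.76 ± 0.40. Pcdhga3 was lower in 3 of 7 types, Pcdhga6 in 3 of 5 and Pcdhga1 in 1 of 2. In every type in which these 4 members were tested the log2 fold change was below 0. None of them was called by DESeq2 in any type.

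Pcdhb2 was higher in D2 in 4 of 5 types. In Exc-DG it read 0.965 and 0.897 CPM in B6 and 2.66 and 2.22 CPM in D2, which gave a log2 fold change of 1.40 ± 0.35, and in oligodendrocyte precursors 10.1 and 4.37 CPM against 17.7 and 17.1 CPM, a log2 fold change of 1.30 ± 0.39. The strains did not overlap in either. Pcdha1, the first gene of the alpha cluster, was higher in 3 of 9 types and had a log2 fold change above 0 in all 9. It differed most in the precursors, at 2.88 and 1.25 CPM in B6 and 14.5 and 10.7 CPM in D2, which gave a log2 fold change of 2.59 ± 0.54. Pcdhb6 was tested in Exc-CA1-Galntl6 only, where it read 0.870 and 0.549 CPM in B6 and 3.45 and 4.86 CPM in D2. Its log2 fold change there was 2.50 ± 0.41, and every alternative kept the call. The other 12 calls fell on 12 further members, 8 higher in D2 at log2 fold changes of 1.28 to 2.22 and 4 lower at -1.36 to -1.95. The furthest was Pcdhb11 in astrocytes, also called by DESeq2, at 1.57 and 1.52 CPM in B6 and 6.37 and 8.25 CPM in D2.

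Pcdha11 was higher in both types tested, but the second symbol, Pcdha11.1, had a log2 fold change below 0 in all 10 types tested and was called lower in Inh-CGE, at -1.70. How reads of this gene were divided between the 2 symbols in each strain was not tested, so no direction is read for it. Pcdhb17 was higher in 2 of 12 types. In Exc-DG the members named by size were Pcdhga11, above, and Pcdhb9, which read 3.38 and 4.12 CPM in B6 and 5.98 and 6.42 CPM in D2, which gave a log2 fold change of 0.73 ± 0.22, together with Pcdhb17 at 0.72 ± 0.27. None of the C-type members was called in any type. Pcdhac2 was tested in 7 types with log2 fold changes of -0.34 to 0.47, Pcdhgc3 in 3 with -0.13 to 0.34, Pcdhgc4 in 9 with -0.63 to 0.54 and Pcdhgc5 in 8 with -0.31 to 0.72. A miss of the threshold at this depth does not show that the strains were alike.

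The family sums differed between strains in some types and less in others. In Exc-DG, the deepest type, the beta sum read 28.8 and 31.4 CPM in B6 and 41.4 and 43.9 CPM in D2, while the gamma sum was nearly level, at 41.9 and 41.9 CPM against 40.9 and 36.3 CPM. In Exc-CA1-Galntl6 the beta sum read 36.2 and 41.2 CPM in B6 and 59.1 and 66.7 CPM in D2, and the gamma sum 46.7 and 41.3 CPM against 33.2 and 31.8 CPM. The alpha sum there overlapped, at 35.0 and 36.2 CPM against 37.0 and 36.5 CPM. In astrocytes the beta sum read 63.1 and 47.7 CPM against 91.0 and 102.8 CPM. The sums contain the members called above, so they were not tested.

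**Figure D4:**
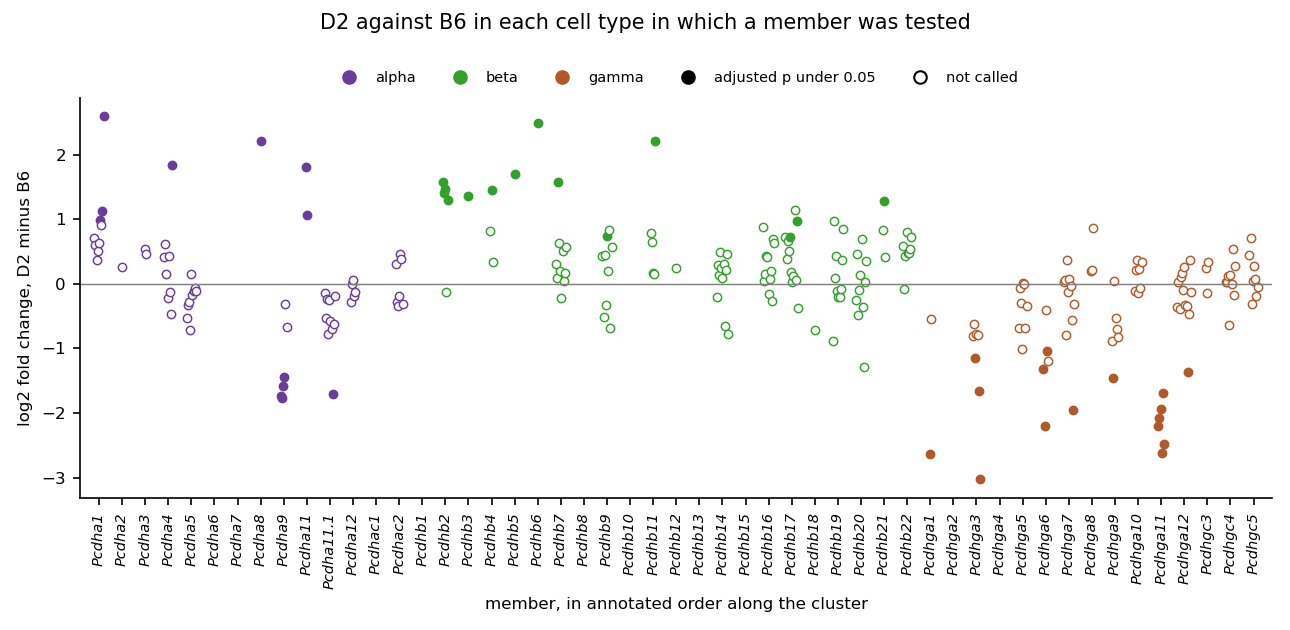
Log2 fold change of D2 minus B6 (vertical axis) for every member in each cell type in which it could be tested, 1 point per type, in annotated order along the cluster with Pcdha11 and Pcdha11.1 placed by number. Filled points passed an adjusted p of 0.05. The 14 filled beta points lie above 0, the 16 filled gamma points lie below it, and alpha members fall on both sides.

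Whether the strain difference itself differed between excitatory and inhibitory neurons was tested by an interaction term. Of 50 members tested, 0 were called (edgeR, DESeq2 also 0), 6 had an unadjusted p under 0.05, and 2.24% of all transcripts were called. Of the C-type members Pcdhgc3 had the largest interaction, at -1.47 ± 0.74, and the other C-type members had -0.15 to 0.50. The smallest adjusted p was that of Pcdhb9, 0.089 in edgeR, with a log2 fold change of D2 against B6 of 0.34 in excitatory and -0.71 in inhibitory neurons. Leaving out B6 library 2 gave 2 calls, leaving out B6 library 3 or D2 library 3 gave 1, and leaving out D2 library 2 gave 0.

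The symbols with counts also differed between the strains. Over all symbols 8204 had counts only in D2 and 960 only in B6, and at 50 counts or more these numbers were 3022 and 129. Among the members Pcdhb1 alone was found in a single strain, on its 3 counts. Pcdhgb8, outside the rule, had 86 counts in D2 against 0 in B6. Of symbols on the members' strand, Gm19035 had 92 D2 counts and Gm36858 had 61, both against 0 for B6. Whether these symbols were absent from the gene list used for B6 was not tested, and their part in the strain differences of neighbouring members was not tested.

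Open chromatin at the starts of the members gave a readout that does not depend on how reads of shared exons were counted. A snATAC peak lay within 500 bp of the start of 46 of 49 members, which were 12 of 12 alpha, 19 of 22 beta and 15 of 15 gamma members, with a separate peak for each. Counts were summed per library over excitatory types (80631768 to 107489343 counts) and inhibitory types (8490139 to 13401546 counts). Levels are CPM of the TMM-scaled library.

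Between the strains, excitatory neurons had 16 of the 46 peaks called (edgeR), 12 higher and 4 lower in D2, where 5.44% of all peaks were higher and 5.22% lower. The 12 were 7 alpha, 3 beta and 2 gamma peaks, and the 4 were those of Pcdha9, Pcdhga3, Pcdhga11 and Pcdhga12. There were 22 peaks at an unadjusted p under 0.05, DESeq2 called 9, and 10 were called without D2 library 3. The peak of Pcdhga11 read 5.68 and 4.43 CPM in B6 and 1.59 and 1.47 CPM in D2, without overlap, a log2 fold change of -1.73 ± 0.13 (edgeR, adjusted p = 4.83e-16). The peak of Pcdha1 read 0.557 and 0.357 CPM against 1.5 and 1.8 CPM, a log2 fold change of 1.86 ± 0.20, and that of Pcdhb1 0.727 and 0.556 CPM against 2.64 and 2.84 CPM, 2.09 ± 0.17. Higher peaks clustered at the start of the alpha cluster, where Pcdha1, Pcdha2, Pcdha3, Pcdha4 and Pcdha5 had log2 fold changes of 1.86, 1.12, 0.97, 1.01 and 0.45 and were all called. The peaks of the 5 C-type members had log2 fold changes of -0.09 to 0.09 and none was called.

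Inhibitory neurons, with fewer counts, had 3 peaks called, where 0.672% of all peaks were higher and 0.628% lower in D2. Pcdhb1 was higher, with a log2 fold change of 2.12 ± 0.47. Pcdhga11 was lower at -2.46 ± 0.35, with 4.14 and 5.07 CPM in B6 and 0.245 and 1.44 CPM in D2, and Pcdhga12 was lower at -1.25 ± 0.22. DESeq2 called 1 of the 46. The C-type peaks had log2 fold changes of -0.17 to 0.32 and were not called.

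Excitatory and inhibitory neurons differed at 23 of the 46 peaks, 1 higher and 22 lower in excitatory neurons (edgeR), where 33.2% of all peaks were higher and 30.0% lower. The 22 were 6 alpha, 11 beta and 5 gamma peaks. The 1 that was higher was that of Pcdhgc5, at 27.2 and 25.2 CPM (B6) and 27.1 and 26.9 CPM (D2) in excitatory and 17.2, 19.2, 18.7 and 18.7 CPM in inhibitory neurons. The classes did not overlap, and the log2 fold change was 0.52 ± 0.06 (edgeR, adjusted p = 1.55e-10). The peak of Pcdhgc4 read 13.2 to 14.3 CPM against 23.0 to 29.2 CPM, a log2 fold change of -0.92 ± 0.06. Pcdhgc3, Pcdhac1 and Pcdhac2 had log2 fold changes of -0.84 ± 0.05, -0.74 ± 0.06 and -0.73 ± 0.05. RNA of Pcdhgc3 was not called in this comparison and that of Pcdhac1 was not tested, while Pcdhac2 RNA was lower in excitatory neurons too.

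**Figure D5:**
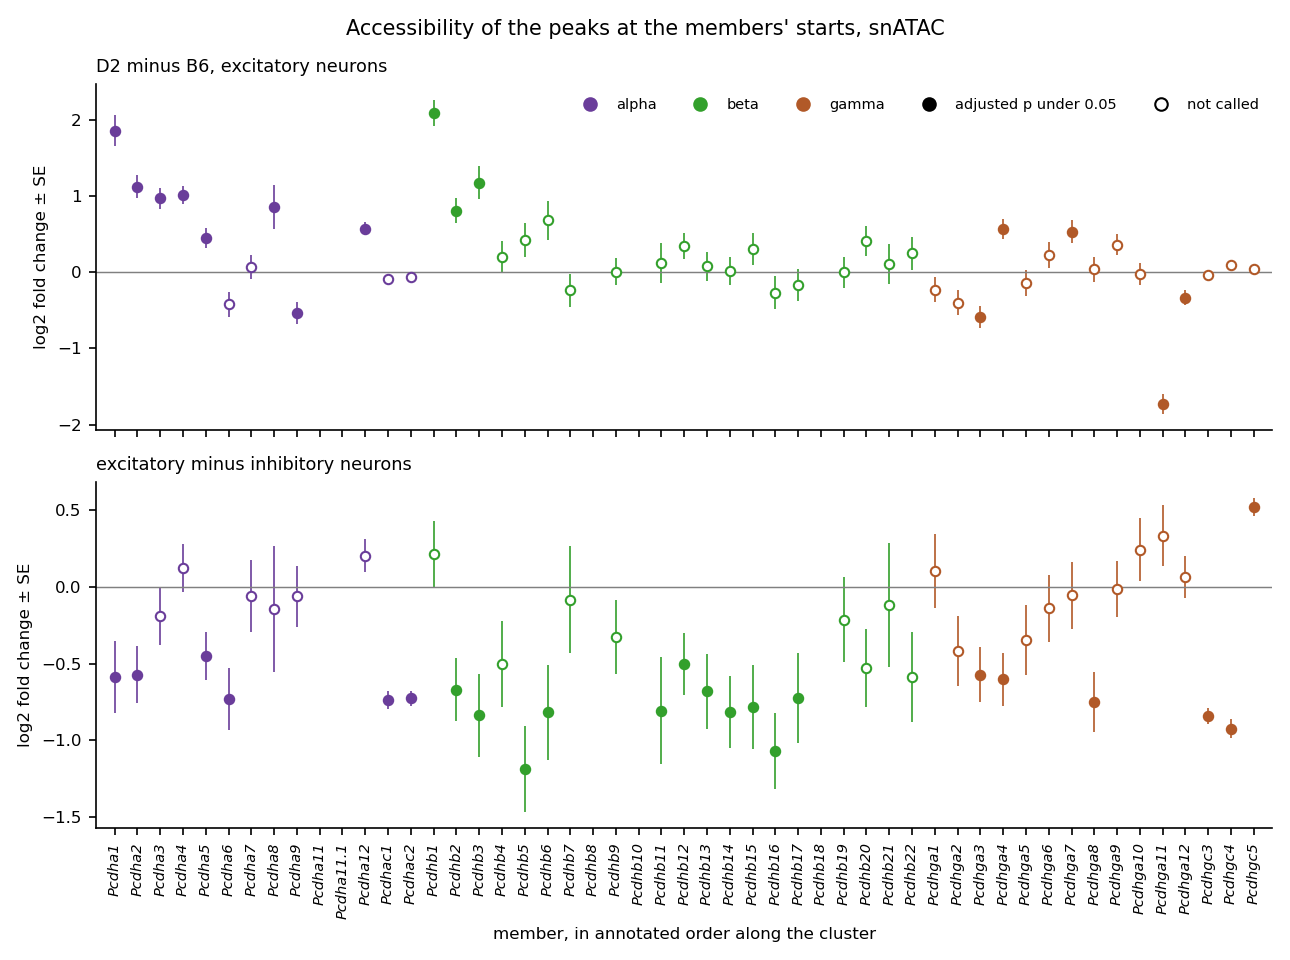
Log2 fold change ± SE (vertical axes) of the snATAC peak at each member's start, in annotated order along the cluster, for D2 minus B6 in excitatory neurons (top) and for excitatory minus inhibitory neurons (bottom), from 2 libraries per strain. Filled points passed an adjusted p of 0.05, and members without a peak have no point. The first 5 alpha peaks lie above 0 and Pcdhga11 at -1.73 in the top panel, and Pcdhgc5 alone is filled above 0 in the lower one.

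Peaks and RNA were set side by side, in different nuclei of the same strains. Of the 16 peaks called between strains in excitatory neurons, 13 belonged to members whose RNA was tested in an excitatory type. RNA was called in the same direction for 6 of these (Pcdha1, Pcdha8, Pcdha9, Pcdhb2, Pcdhga11 and Pcdhga3), in the opposite direction for 0, and not called for 7. Of those not called, RNA summed over excitatory types had the opposite sign for Pcdha5 (-0.20, peak 0.45) and Pcdha12 (-0.20, peak 0.57). It had the same sign for Pcdha2, Pcdha3, Pcdha4, Pcdhga7 and Pcdhga12. Counted from the RNA, 16 members with a peak were called in an excitatory type. All but the 6 called in the same direction had no called peak. Among the rest, the peaks of Pcdhb7, Pcdhb17, Pcdhga6 and Pcdhga9 had the opposite sign. Those of Pcdhb4, Pcdhb5, Pcdhb6, Pcdhb9, Pcdhb21 and Pcdhga1 had the same sign. Of the 23 peaks called between excitatory and inhibitory neurons, RNA was tested for 22, called in the same direction for 12, in the opposite direction for 0, and not called for 10. Counted from the RNA, 18 members with a peak were called between these classes. Both assays mapped D2 to the same altered reference, so the 2 readouts share that step between strains, though not between classes of cells.

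The proteins of promoter choice were taken as a separate list: Ctcf, cohesin and its loaders, Smchd1, Setdb1, Rest and the DNA methylation enzymes. Of 19 tested, 3 were higher and 10 lower in neurons than in non-neuronal cells (edgeR), 8 higher and 3 lower in excitatory than in inhibitory neurons, and 10, all higher, in Exc-DG than in CA neurons. Over all transcripts these shares were 35.0% higher and 35.8% lower, 27.8% and 28.1%, and 26.0% and 27.1%, in that order. Rest, a repressor of neuronal genes, read 2.12 to 2.87 CPM in neurons and 14.7 to 20.0 CPM in non-neuronal cells, a log2 fold change of -2.89 ± 0.13. Dnmt3b, a methyltransferase known to set alternate promoters, read 1.07 to 1.98 CPM against 4.63 to 7.07 CPM. Ctcf, which joins promoters to enhancers in the clusters, read 57.9 to 65.2 CPM in excitatory and 41.6 to 49.3 CPM in inhibitory neurons, a log2 fold change of 0.41 ± 0.06. In CR-CR 6 of 19 were higher and 1 lower, where 10.9% and 17.4% of all transcripts were, and in precursors against oligodendrocytes 2 of 18 were higher and 6 lower, where 27.8% and 27.1% were. Between strains at most 5 of this list were called in a type. In Exc-DG 1 of 19 tested was higher and 4 were lower in D2, where 36.0% of all transcripts were called. In Exc-CA1-Galntl6 2 of 18 were higher and 3 lower, where 35.0% were called. Smchd1 was called in these 2 types and in Exc-CA1-Camk2d (19.4% of all transcripts) and Exc-CA1-Fras1 (28.5%).

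A list of binding partners and signalling proteins (the WAVE complex, focal adhesion kinases, proteases and others) split in both directions in most comparisons, and its counts stand against the same shares of all transcripts. Of 20 tested, 9 were higher and 8 lower in neurons than in non-neuronal cells, and 12 higher and 6 lower in excitatory than in inhibitory neurons. Ptk2b, a kinase that alpha and gamma constant domains are known to inhibit, read 239.6 to 283 CPM in excitatory and 8.59 to 14.7 CPM in inhibitory neurons, a log2 fold change of 4.57 ± 0.10. Wasf1, a subunit of the actin-regulating WAVE complex, read 223 to 241 CPM against 51.7 to 59.1 CPM, 2.03 ± 0.06. Of 19 tested, 10 were higher and 4 lower in Exc-DG than in CA neurons, and 9 higher and 8 lower in precursors than in oligodendrocytes. In CR-CR 2 of 20 were higher and 11 lower. Between strains 8 of 19 tested were called in Exc-DG (36.0% of all transcripts), 1 higher and 7 lower in D2, and fewer in every other type.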

How the data were processed

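Single-nucleus RNA and open chromatin were measured in ventral hippocampus of B6 and D2 mice, with 2 libraries of each assay per strain. Per the study's methods, the authors aligned snRNA reads with Cell Ranger 6.0.2 (introns kept) and snATAC reads with Cell Ranger ATAC 2.0.0 to mm10, or for D2 to mm10 carrying D2 variants, removed doublets and clustered nuclei with Seurat 4.0.5. The values used here are the raw counts per symbol or peak that the authors summed per cell type and library and deposited, with no normalization. The deposited tables also hold the number of nuclei per column. Peaks were called per sample and merged by the authors. Of the per-sample columns 0 were left unused, and the methylation data of the series were not analysed here.

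Counts were tested with edgeR 4.0.16 (quasi-likelihood F test, TMM) in R 4.3.3 over all symbols or peaks passing a filter on low counts (filterByExpr for RNA, at least 10 counts over the columns for peaks), with Benjamini-Hochberg adjustment and a threshold of 0.05. Strains were compared within each cell type, and classes on counts summed per library with the library as a block, since every class comes from the same nuclei suspension. Log2 fold changes are given ± SE. Class levels in a comparison are CPM over the libraries of that comparison. DESeq2 1.42.0, other filters, scalings and left-out libraries were alternatives. Scripts were tested on simulated data. Chi-square over its degrees of freedom between libraries of a strain was 1.40 to 4.50, more than sampling noise gives, so all were kept as separate libraries.

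Named genes were the C-type members, up to 5 members per direction with the largest called change and a mean of at least 2 CPM in each class comparison, up to 5 members per direction called in the most types for strain, and up to 5 per direction in Exc-DG. Others named are few in their count or stand beside a result, and were chosen with their values seen. For members named as called changes, a lack of overlap between libraries is a description and not support. Members, marker lists and lists of related genes were chosen with earlier results of these data known. Positions come from GENCODE vM21 on mm10. Intervals and adjusted p-values cover the spread between libraries that pool about 2 animals each.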

Additional observations from a re-analysis of the deposited data

How the results depend on the processing

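Of 700 repeated values for 70 single-gene results, 590 kept their direction and side of the threshold, 109 kept their direction but were no longer called, and 1 reversed. That one was Pcdhgc3 in CR-CR, whose log2 fold change was -6.88 within D2, where it had 0 counts. DESeq2 called fewer: 5 strain pairs, 21 members for neurons against non-neuronal cells (12 higher, 9 lower), 2 members in Exc-DG against CA, 0 in CR-CR, 9 strain peaks in excitatory and 1 in inhibitory neurons, but 8 in precursors against oligodendrocytes. With every symbol of at least 1 count tested, strain pairs called were 61 (the filter then admits more pairs), CR-CR members 0, precursor members 22 and interactions 2. Within B6 alone Exc-DG had 2 calls, CR-CR 0 and precursors 10, and within D2 alone CR-CR had 0 and precursors 7. A minimum of 10 counts gave 0 in CR-CR.

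Leaving out 1 library each, calls ranged from 21 to 31 for strain pairs, 20 to 25 for neurons against non-neuronal cells, 18 to 21 for excitatory against inhibitory neurons, 4 to 8 in Exc-DG, 0 to 2 in CR-CR, 4 to 5 in precursors and 0 to 2 for the interaction. For peaks they ranged from 10 to 18 and from 2 to 3 between strains in excitatory and inhibitory neurons, and from 16 to 24 between these classes. Where a group kept 1 library, it was assumed to vary like the others.

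Same-numbered B6 and D2 libraries did not deviate together (correlations of -0.155 to 0.063), so the libraries were not paired by number. With 2 libraries per strain these values cannot exclude a shared preparation. A replicate block by number also gave 42 strain pairs called, but not all the same ones. Pcdhb2 in Exc-Gpc6 and Pcdhb3 in Inh-MGE, for example, were no longer called. With no replicate block by library, 16 members were called for neurons against non-neuronal cells, 16 for excitatory against inhibitory neurons, 0 in Exc-DG against CA and 17 peaks between excitatory and inhibitory neurons. Depth limits CR-CR, microglia and vascular cells most, and leaves Pcdhac1 out of the comparisons of classes and of strains within types, and Pcdhb1 RNA without a test.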
